A study of Mus musculus with 8 samples.

Results

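The Hox genes encode homeodomain transcription factors and lie in 4 clusters, HoxA, HoxB, HoxC and HoxD. The rule for this set takes the 39 Hox genes of the mouse clusters, of which 38 were analysed here, among 21631 protein-coding genes, together with the DNA of each cluster plus 50 kb on each side. The listed genes span chr6:52162417-52260880 for HoxA (10 genes), chr11:96194316-96368254 for HoxB (10 genes), chr15:102921131-103036856 for HoxC (9 genes) and chr2:74668225-74765142 for HoxD (9 genes), all on mm10.

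Haematopoietic stem cells (HSCs) with the surface markers Lin-cKit+Sca1+CD48-CD150+ came from bone marrow of C57BL/6 mice of about 10 months, with 4 or 5 mice pooled, and 7500 cells went into each CUT&RUN assay. In CUT&RUN an antibody brings a tethered nuclease to nucleosomes with the mark, and the fragments it frees are read. RXRKO cells carried VavCre, which is active in blood and endothelial lineages, and the deleted alleles RxRa∆/∆;RxRb∆/∆, so both retinoid X receptors RXRα and RXRβ were removed. The WT genotype label reads VavCre+; WT, whereas the design text gives floxed Rxra and Rxrb without Cre, so the presence of Cre in the WT mice is not settled. H3K4me1 was mapped in 2 RXRKO and 2 WT libraries, H3K4me3 in 1 RXRKO and 1 WT library, and H3K27ac in 1 RXRKO and 1 WT library. Whether replicates were separate pools of mice is not stated, so p-values measure only the spread between these libraries. In sorted pools, fewer cells that carry a mark and less of the mark in each cell cannot be told apart.

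Genes at the 3' side of a cluster are used at the front of the embryo and genes at the 5' side towards the tail. In blood, HOXA and HOXB proteins act in stem and progenitor cells, and retinoic acid acts on Hox genes through heterodimers of RXR with the retinoic acid receptors. H3K4me3 marks promoters, H3K27ac marks active promoters and enhancers, and H3K4me1 marks enhancers and the flanks of promoters. Trithorax proteins such as MLL1 (Kmt2a) write H3K4 methylation at Hox genes, and Polycomb proteins hold them silent.

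The deposited files are peak lists and give no number of reads, so depth is not stated. The lists held 147698 and 165128 H3K4me1 peaks in RXRKO and 149377 and 159713 in WT, 58136 H3K4me3 peaks in RXRKO and 47835 in WT, and 64849 H3K27ac peaks in RXRKO and 74287 in WT. All 12 HSC marker genes checked had an H3K4me3 peak at the start in both genotypes, and 8 of the 12 had H3K27ac there in RXRKO, against 10 of the 12 in WT, the 2 called in WT only being Kit and Gata2. At the starts of markers of other cell types, H3K4me3 was called at 1 of 5 B cell genes in each genotype, 3 of 5 T cell genes in RXRKO and 2 of 5 in WT, and at 0 of 5 granulocyte and monocyte genes, 3 of 5 erythroid genes, 3 of 3 megakaryocyte genes, 4 of 6 endothelial and stromal genes and 2 of 6 genes silent in blood in each genotype. H3K27ac was called at 1, 1, 1, 4, 3, 3 and 0 starts of those lists in RXRKO, and at 1, 1, 1, 3, 3, 3 and 0 in WT. Their part in the results on H3K27ac was not tested.

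The 4 clusters fell into pairs by their acetylation, in both genotypes. HoxA and HoxB carried H3K4me3 and H3K27ac, whereas HoxC and HoxD carried H3K4me3 almost without H3K27ac. H3K4me3 peaks covered 15.1% of the HoxA window in RXRKO and 14.5% in WT, 14.2% of HoxB in RXRKO and 10.9% in WT, 9.52% of HoxC in RXRKO and 8.7% in WT, and 9.71% of HoxD in RXRKO and 7.7% in WT. In 200 kb tiles of the genome the 95th percentile of this cover was 7.11% in RXRKO and 6.27% in WT, below each cluster's cover in the same genotype. H3K27ac peaks covered 2.96% of HoxA in RXRKO and 4.36% in WT, and 3.44% of HoxB in RXRKO and 4.21% in WT. In HoxC they covered 0.409% in RXRKO and 0.142% in WT, and in HoxD 0.331% in RXRKO and 0.645% in WT. The median tile had 0.928% in RXRKO and 0.912% in WT, so HoxA and HoxB lay above the median tile and HoxC and HoxD below it. The 95th percentile of tiles was 5.74% in RXRKO and 6.23% in WT. Unlike for H3K4me3, no cluster reached it. The HoxC cover was 1 peak in each genotype and the HoxD cover 2 peaks in each.

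**Figure D1:**
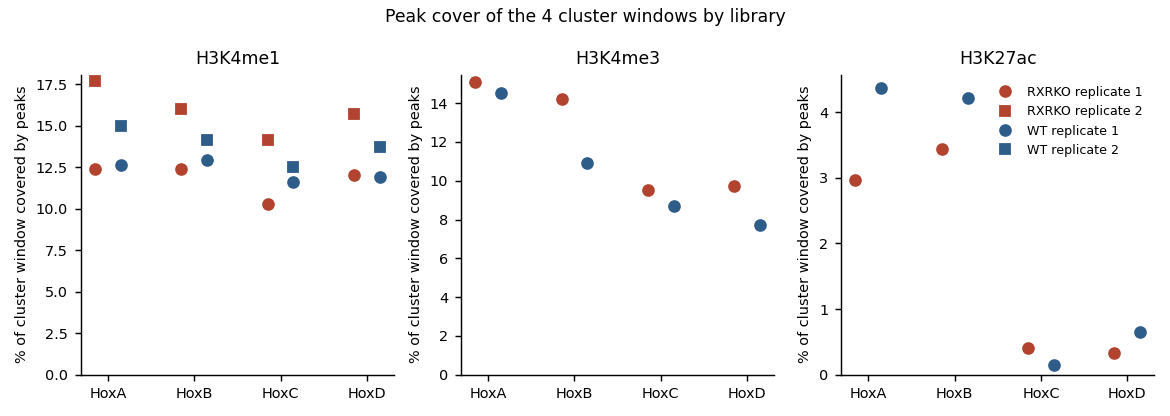
Share of each cluster window covered by called peaks (y axis, percent, from 0) for H3K4me1, H3K4me3 and H3K27ac, with each point 1 library, RXRKO left of WT, circles replicate 1 and squares replicate 2. H3K27ac covers 2.96% and 3.44% of HoxA and HoxB in RXRKO and 4.36% and 4.21% in WT, and under 1% of HoxC and HoxD in both genotypes.

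With the 50 kb flanks included, H3K4me1 covered all 4 cluster windows to a similar extent. In RXRKO replicates 1 and 2 it covered 12.4% and 17.7% of HoxA, 12.4% and 16% of HoxB, 10.3% and 14.1% of HoxC, and 12% and 15.7% of HoxD. In WT replicates 1 and 2 it covered 12.6% and 15% of HoxA, 12.9% and 14.1% of HoxB, 11.6% and 12.5% of HoxC, and 11.9% and 13.7% of HoxD. In each cluster the second replicate had the higher cover in both genotypes, and the genotypes overlapped. Without the flanks the clusters differed more, with HoxD highest and HoxB lowest in every library. There HoxD had 20.1% and 26.1% in RXRKO and 20.1% and 22.8% in WT. HoxB had 12.4% and 17.1% in RXRKO and 13.4% and 15.4% in WT.

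The marks also lay on one another differently in the pairs of clusters. In RXRKO, 13.1% of the H3K4me3-covered bases of HoxA and 18.4% of those of HoxB also had H3K27ac, against 23.1% and 29.9% in WT. In HoxC the share was 4.3% in RXRKO and 1.63% in WT, and in HoxD 3.41% in RXRKO and 6.09% in WT, whereas over the genome it was 58.1% in RXRKO and 62.6% in WT. With H3K4me1 the order was the other way round. Replicate 2 of H3K4me1 covered 70.6% and 55.3% of the H3K4me3 bases of HoxA and HoxB in RXRKO and 61.9% and 68.9% in WT. It covered 94.4% and 90.7% of those of HoxC and HoxD in RXRKO and 89.7% and 91.6% in WT. With replicate 1 the shares in HoxA and HoxB were 47.6% and 52.2% in RXRKO and 47.6% and 60.4% in WT, and in HoxC and HoxD 81.0% and 81.6% in RXRKO and 83.2% and 85.2% in WT.

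**Figure D2:**
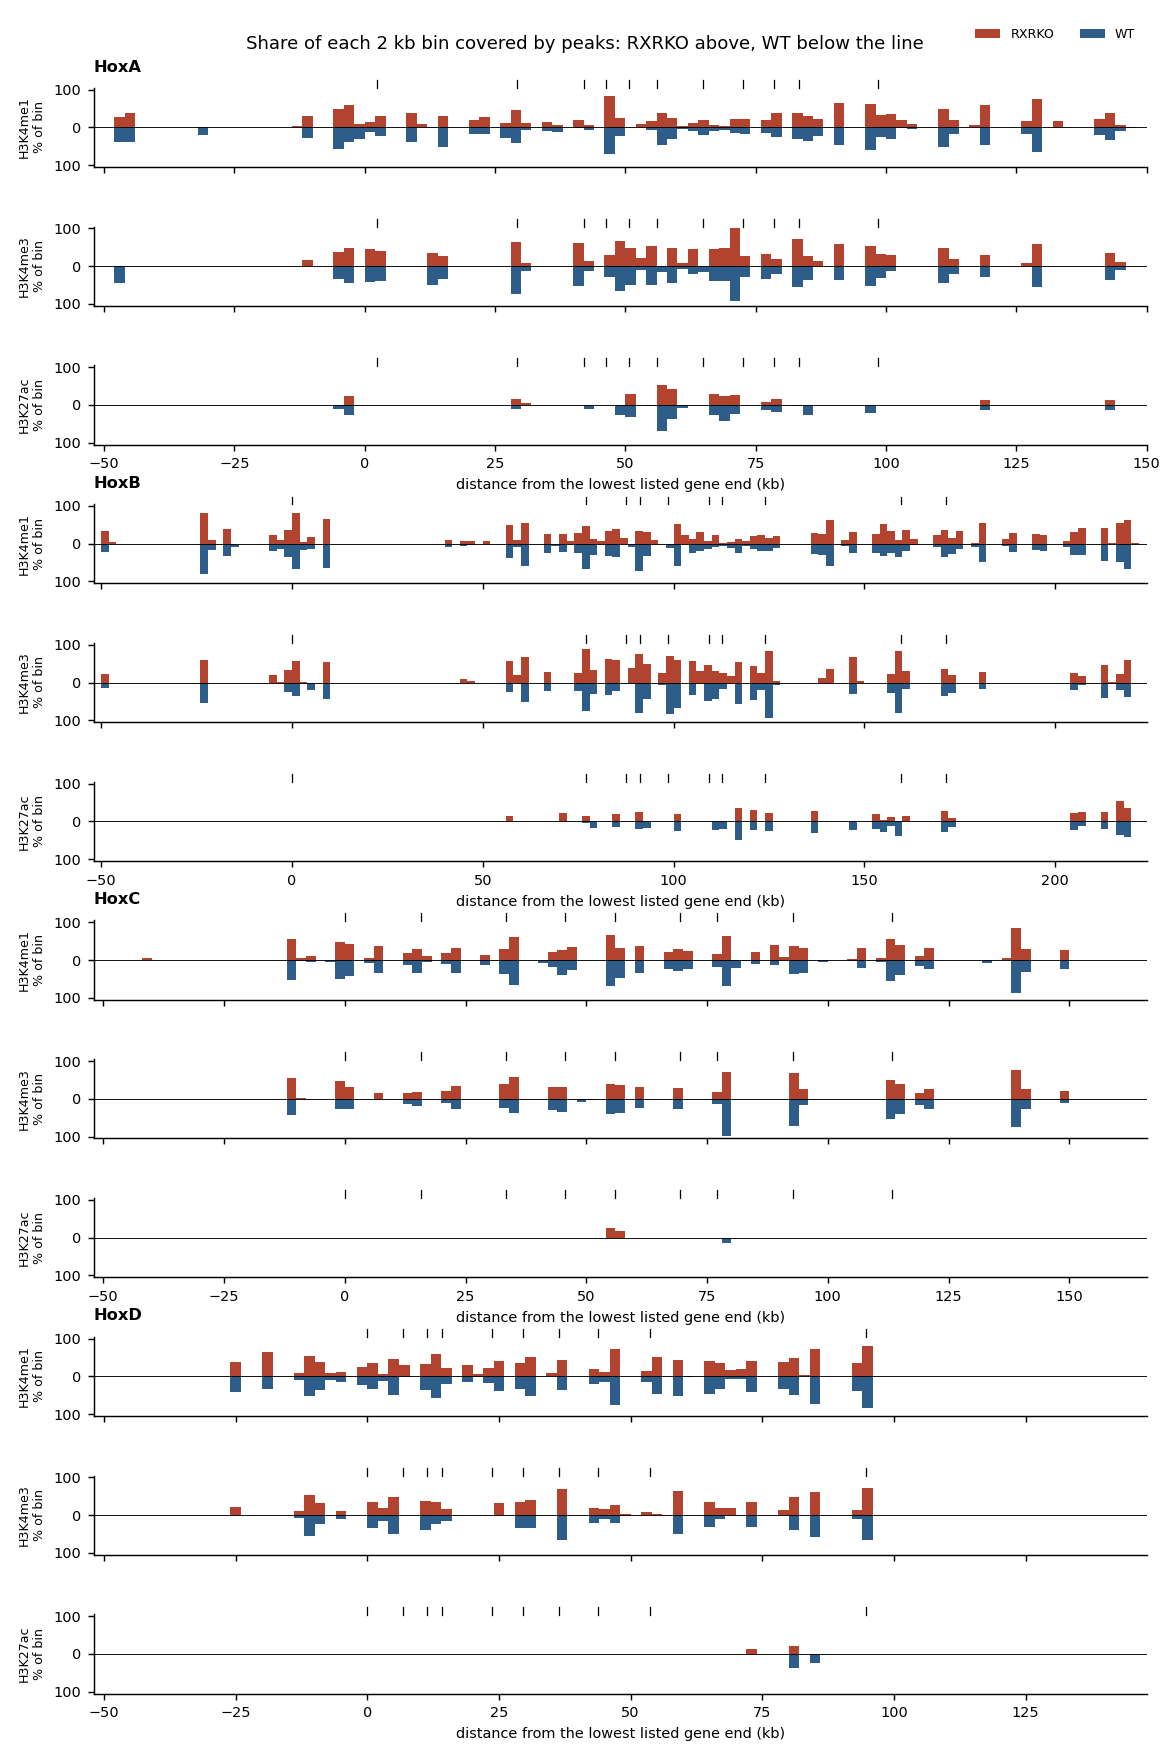
Share of each 2 kb bin covered by called peaks (y axis, percent) along the 4 cluster windows (x axis, distance in kb from the lowest listed gene end), with RXRKO drawn upwards and WT downwards, H3K4me1 as the mean of 2 libraries, and ticks at the starts of the listed genes. H3K27ac bars stand within HoxA and HoxB and, in HoxC and HoxD, in 1 peak and 2 peaks per genotype.

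At the gene starts, an H3K4me3 peak within 1 kb was called in both genotypes at 32 of the 38 Hox genes. It was called in RXRKO only at Hoxd10 and Hoxd4, in WT only at Hoxa9, and in neither at Hoxb8, Hoxc12 and Hoxd12. Among all 21631 genes, 66.6% were called in both, 1.08% in the RXRKO list alone, 0.425% in the WT list alone and 31.9% in neither. The start of Hoxd10, a posterior gene, had 590 bp of peak in RXRKO and 0 bp in WT. The start of Hoxd4, whose anterior limit in the embryo responds to retinoic acid, had 216 bp in RXRKO and 0 bp in WT. The start of Hoxa9, which drives self-renewal in leukaemia with its cofactor Meis1, had 0 bp in RXRKO and 326 bp in WT. All 3 calls ended under another peak threshold: Hoxd10 and Hoxd4 were called in neither genotype when both lists held the same number of top peaks, and Hoxa9 in neither at a -log10 q of at least 5, where its peak had 4.97. Within 2 kb of the start, Hoxa9 was no longer called in WT alone.

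The 250 bases upstream of these 3 starts are shown because they are the H3K4me3 calls that differed under the main setting between genotypes, and Hoxb4, which expands HSCs when overexpressed, is shown beside them as a promoter with H3K4me3 and H3K27ac in both genotypes. The sequences are RefSeq's on GRCm38.p6, the build of mm10, and read 5' to 3' on the strand of the gene up to the base before its start. Capitals mark the nuclear receptor half-site AGGTCA on either strand (TGACCT on the other strand).
Hoxd10, chr2:74691641-74691890, plus strand: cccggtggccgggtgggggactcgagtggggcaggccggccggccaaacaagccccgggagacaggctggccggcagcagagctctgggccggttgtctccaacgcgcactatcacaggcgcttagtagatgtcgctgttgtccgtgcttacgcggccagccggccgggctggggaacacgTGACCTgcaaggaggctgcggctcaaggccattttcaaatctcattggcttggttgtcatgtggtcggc
Hoxd4, chr2:74721728-74721977, plus strand: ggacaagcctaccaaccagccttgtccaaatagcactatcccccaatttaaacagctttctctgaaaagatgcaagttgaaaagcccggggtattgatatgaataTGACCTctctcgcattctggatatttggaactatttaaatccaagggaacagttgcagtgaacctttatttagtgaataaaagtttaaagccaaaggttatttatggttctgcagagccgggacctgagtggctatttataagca
Hoxa9, chr6:52227371-52227620, minus strand: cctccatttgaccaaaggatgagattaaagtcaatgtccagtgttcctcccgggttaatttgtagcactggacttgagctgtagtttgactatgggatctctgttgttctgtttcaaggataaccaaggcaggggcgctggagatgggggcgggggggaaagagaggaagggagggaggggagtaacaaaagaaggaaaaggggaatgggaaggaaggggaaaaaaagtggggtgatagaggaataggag
Hoxb4, chr11:96318017-96318266, plus strand: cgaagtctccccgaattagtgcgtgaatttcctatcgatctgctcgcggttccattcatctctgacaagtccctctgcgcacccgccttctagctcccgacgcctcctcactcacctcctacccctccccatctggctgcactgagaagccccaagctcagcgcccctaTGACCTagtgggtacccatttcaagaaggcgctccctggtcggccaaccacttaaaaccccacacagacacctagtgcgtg
The half-site began 69 bases before the start of Hoxd10, 145 bases before that of Hoxd4 and 81 bases before that of Hoxb4, in each case on the other strand, and Hoxa9 had no match.

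Upstream sequences could be matched for 22 of the 38 Hox genes, with 24 start sites. AGGTCA on either strand was found in 6 of the 24, or 25%, against 14.0% of all 32851 promoters of the same length. The 6 were Hoxd10, Hoxd8, Hoxd3, Hoxd4, Hoxb4 and Hoxc4. The 24 promoters were 10 of HoxA, 3 of HoxB, 1 of HoxC and 10 of HoxD, so most HoxB and HoxC genes were not searched. The related half-sites AGTTCA and GGGTCA were found in 2 promoters (8.33% against 11.8% of all) and 1 promoter (4.17% against 11.6%). Direct repeats were searched with a looser half-site, reading A or G, then G, then G or T, then TCA. With 1, 2 or 5 bases between, the spacings named DR1, DR2 and DR5, they were found in none of the 24. In all promoters the shares were 0.164%, 0.174% and 0.0883%, so finding none in 24 tells little. CCAAT on either strand was found in 14 of the 24, or 58.3%, against 33.8% of all. The median ratio of observed to expected CpG was 0.721 in the 24 and 0.373 in all promoters, and of the sequences shown Hoxd10 and Hoxb4 had ratios of 0.755 and 0.76, and Hoxd4 and Hoxa9 had 0.294 and 0.266.

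How high a summit had to be to enter a list depended on where it lay. The number of fragments at each summit and the local background that the peak caller set against it were solved for from the deposited fold and -log10 p. Fold, score and p of a peak are the authors' own values, and heights and their percentiles rank peaks within 1 list only. The usual background differed between libraries, so fragment numbers of RXRKO and WT do not lie on 1 scale. Its part in calls of a single genotype was not tested. It was 4.19 fragments in the RXRKO H3K27ac library and 4.77 in that of WT. In H3K4me1 replicates 1 and 2 it was 6.53 and 12.6 in RXRKO and 5.62 and 7.37 in WT. In the H3K4me3 libraries it was 6.68 fragments in RXRKO and 4.12 in WT. At the peaks of HoxA it reached 284 in RXRKO and 190 in WT, and at those of HoxB 290 in RXRKO and 164 in WT, against at most 40.7 in HoxC and 36.1 in HoxD in RXRKO and 29.4 and 23.1 in WT. To reach the lowest -log10 p of its list, a summit needed 16 fragments in RXRKO and 12 in WT at the usual background. At the highest local background it needed 338 in RXRKO and 235 in WT in HoxA, and 345 in RXRKO and 206 in WT in HoxB. In RXRKO 81.1% of all H3K4me3 peaks, and in WT 80.2%, were lower than the height needed in HoxA. For H3K4me1, 66 to 118 fragments were needed at the highest background of HoxA and HoxB over the 4 libraries. In HoxC and HoxD 37 to 78 were needed. The part of these needed heights in the bases shared between marks was not tested.

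Hoxa9 and Hoxb8 lay in ground where the H3K4me3 background was above the usual background of the library, in both genotypes. Next to the uncalled start of Hoxa9 in RXRKO, the nearest peaks stood 1209 bp and 1651 bp away with 562 and 464 fragments, over local backgrounds of 279 and 280 at which 333 and 334 fragments were needed. In WT the peak called at Hoxa9 had 248 fragments over a local background of 176. Around the start of Hoxb8 the neighbouring peaks had 325 and 443 fragments over local backgrounds of 190 and 235 in RXRKO, and 137 and 298 over 40.0 and 67.9 in WT, where 61 and 95 fragments were needed. The peaks at Hoxd10 and Hoxd4 in RXRKO were low instead, at 34 fragments (percentile 25.8 of their list) and 22 fragments (percentile 4.96), over local backgrounds of 10.6 and 7.8. Around the uncalled starts in WT, the neighbouring peaks of Hoxd10 had 42 and 65 fragments over local backgrounds of 14.6 and 11.4. Those of Hoxd4 had 79 and 99 fragments over 12.1 and 9.31. The part of the local background in these differing calls was not tested.

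**Figure D3:**
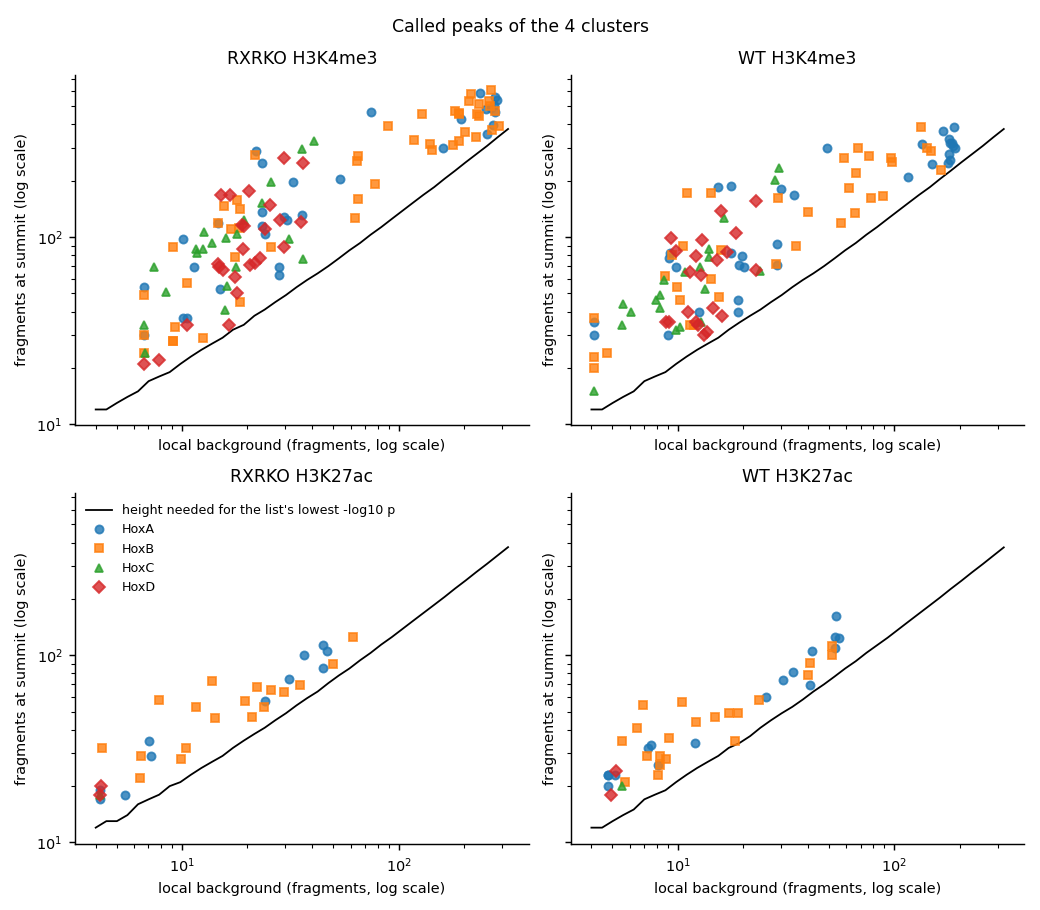
Fragments at the summit (y axis, log scale) against local background (x axis, log scale) for each called peak of the 4 clusters, with RXRKO left of WT and H3K4me3 above H3K27ac. The line gives the height at which a summit reaches the lowest -log10 p of its list, which is 338 fragments at the highest HoxA background in RXRKO H3K4me3 and 235 in WT.

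H3K4me3 summits at called starts had higher medians in HoxA and HoxB than in HoxC and HoxD in both genotypes, with overlapping ranges. The median height at called starts was 248 fragments in HoxA, 455 in HoxB, 122.5 in HoxC and 113 in HoxD in RXRKO, and 199, 227, 65.5 and 71 in WT. The deposited fold over local background ran the other way, with medians over all peaks of the window of 3.52, 2.57, 6.17 and 4.24 in RXRKO and 3.03, 3.37, 5.31 and 4.65 in WT. The start came from the promoter table for 9 of 10 genes in HoxA, 3 of 10 in HoxB, 1 of 9 in HoxC and 9 of 9 in HoxD, and elsewhere it was the end with more H3K4me3, so heights at those starts, Hoxb5, Hoxb7 and Hoxc9 included, are in part set by that choice. In RXRKO the highest promoter peaks were at Hoxb5, which marks long-term HSCs in mice, with 607 fragments (percentile 99.1), at Hoxa3 with 585 (percentile 98.4) and at Hoxb7 with 583 (percentile 98.3). In WT they were at Hoxb5 with 387 (percentile 99.2), Hoxa3 with 369 (percentile 98.4) and Hoxa7 with 333 (percentile 95.2). The highest starts of HoxC were at Hoxc9, with 327 fragments in RXRKO and 233 in WT (percentiles 80.4 and 80.0), and those of HoxD at Hoxd1, with 263 in RXRKO and 138 in WT (percentiles 76.5 and 68.2). At these starts, group 4 paralogues in RXRKO had 248 fragments at Hoxa4, 461 at Hoxb4, 198 at Hoxc4 and 22 at Hoxd4. In WT the first 3 had 188, 252 and 127, and the Hoxd4 start had no peak. The Hoxd4 values are for its start alone. Inside the annotated Hoxd4 body, 4899 bp from that start, chr2:74726877-74728171 was called in both genotypes. It had 1295 bp of H3K4me3 peak in RXRKO and 978 bp in WT.

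**Figure D4:**
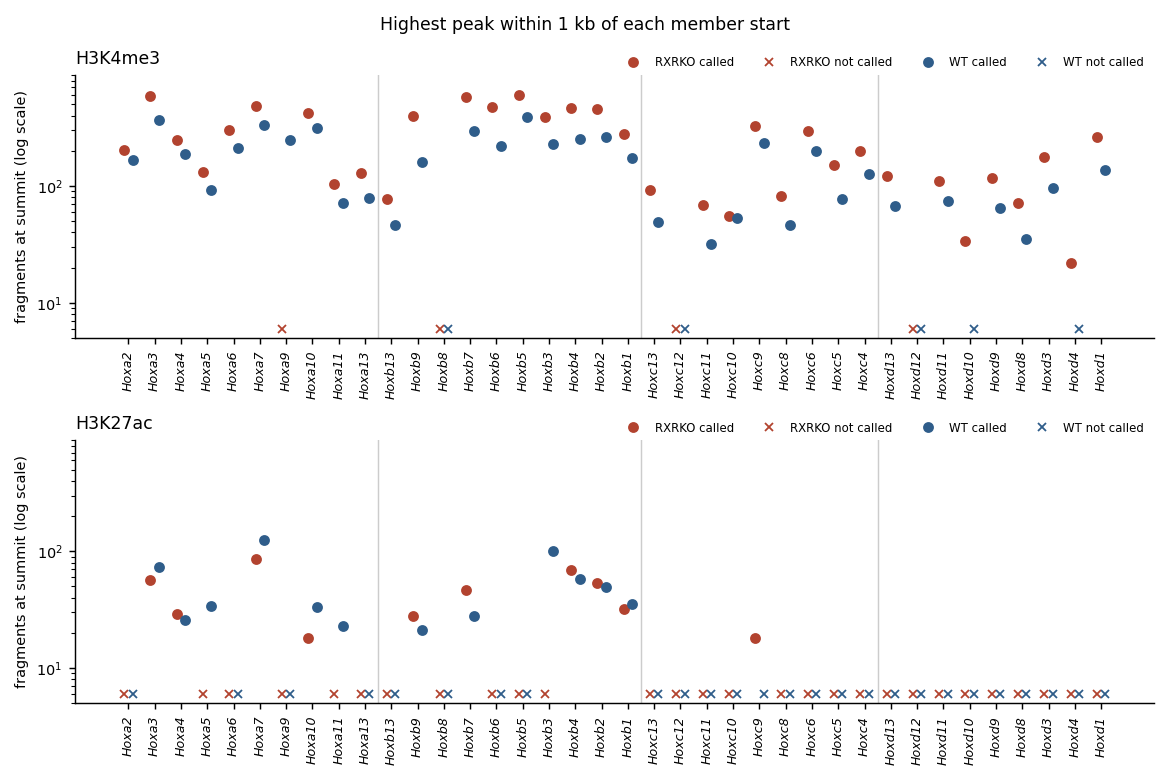
Fragments at the summit of the highest peak within 1 kb of each Hox gene start (y axis, log scale) for H3K4me3 and H3K27ac, with genes in genomic order within HoxA, HoxB, HoxC and HoxD, RXRKO left of WT, and crosses on the baseline for starts with no called peak. H3K4me3 is highest at Hoxb5 in both genotypes, and no start in HoxD has H3K27ac.

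H3K27ac was called at far fewer starts, and its local background also differed between clusters. At the highest one, a summit needed 70 fragments in HoxA and 88 in HoxB in RXRKO, and 80 and 76 in WT. In HoxC and HoxD it needed 12 in RXRKO and 14 in WT. Near the uncalled start of Hoxa9, peaks had 106 and 100 fragments in RXRKO and 124 and 106 in WT. A start of HoxA or HoxB without a call is thus not shown to lack the mark. H3K27ac was called in both genotypes at 9 Hox genes, which were Hoxa3, Hoxa4, Hoxa7 and Hoxa10 in HoxA and Hoxb9, Hoxb7, Hoxb4, Hoxb2 and Hoxb1 in HoxB. It was called in RXRKO only at Hoxc9, in WT only at Hoxa5, Hoxa11 and Hoxb3, and at the other 25 in neither. Among all genes 56.7% were called in both, 1.15% in the RXRKO list alone, 4.27% in the WT list alone and 37.9% in neither. At a fold of 4 or more, no Hox start was called in a single genotype, but only 1 was then called in both, so little could differ. At a -log10 q of at least 5, Hoxa4 was called in RXRKO only. Hoxa5, Hoxa10, Hoxa11, Hoxb7, Hoxb3, Hoxb4 and Hoxb2 were then called in WT only. Of the Hox genes with H3K4me3 at the start, H3K27ac was also called at 4 of 9 in HoxA, 5 of 9 in HoxB, 1 of 8 in HoxC and 0 of 8 in HoxD in RXRKO. In WT it was called at 6 of 10, 6 of 9, 0 of 8 and 0 of 6, and over all genes at 84.5% in RXRKO and 88.9% in WT. With 1 library per genotype, none of these differences has a replicate check.

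The 4 starts with H3K27ac in a single genotype were called as follows. Hoxa5, a myeloid regulator, had 0 bp in RXRKO and 214 bp in WT, Hoxa11 had 0 bp in RXRKO and 428 bp in WT, and Hoxb3, which acts with Hoxb4 in stem cell regeneration, had 0 bp in RXRKO and 427 bp in WT. Hoxc9 had 883 bp in RXRKO and 0 bp in WT. The peaks behind these calls had 34, 23 and 100 fragments in the WT list at Hoxa5, Hoxa11 and Hoxb3 (percentiles 49.0, 22.9 and 94.3), and 18 fragments in the RXRKO list at Hoxc9 (percentile 10.7). Near Hoxb3 in RXRKO, a peak of 125 fragments stood 4348 bp away over a local background of 61.7, where 88 fragments were needed. The H3K4me3 peak was called at all 4 of these starts in both genotypes.

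Of the HoxA genes, Hoxa7, Hoxa9 and Hoxa10 are known from stem cells and from MLL-rearranged leukaemia. Covered lengths in this and the following paragraphs are base pairs of peak in the gene and 2 kb around it. Hoxa7 had 1226 bp of H3K27ac in RXRKO and 1576 bp in WT, 1498 bp of H3K4me3 in RXRKO and 1501 bp in WT, and 1321 and 1339 bp of H3K4me1 in RXRKO against 708 and 1401 bp in WT. Hoxa9 had 665 bp of H3K27ac in RXRKO and 1120 bp in WT, 2352 bp of H3K4me3 in RXRKO and 2105 bp in WT, and 779 and 2040 bp of H3K4me1 in RXRKO against 1175 and 1804 bp in WT. Hoxa10 had 1753 bp of H3K27ac in RXRKO and 2253 bp in WT, the most in the cluster in both, 5277 bp of H3K4me3 in RXRKO and 4960 bp in WT, and 961 and 3365 bp of H3K4me1 in RXRKO against 1068 and 2197 bp in WT. Each of the 3 had less H3K27ac cover in the RXRKO library, while their H3K4me1 ranges overlapped. Hoxa5 had 1496 bp of H3K4me3 in RXRKO and 1327 bp in WT, and its H3K4me1 was 0 and 1065 bp in RXRKO against 0 and 356 bp in WT. Hoxa3, whose annotated body of 44.0 kb contains Hoxa4, Hoxa5 and Hoxa6, held the most H3K4me3 of HoxA, with 7042 bp in RXRKO and 7592 bp in WT.

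The strongest H3K27ac of HoxA stood between genes, upstream of Hoxa7. Its peak was at chr6:52219838-52220997 in RXRKO with 114 fragments (percentile 98.7 of that list) and at chr6:52219866-52220589 in WT with 163 fragments (percentile 99.5), 1265 bp and 1293 bp from the Hoxa7 start. In HoxB the highest H3K27ac peak lay inside the annotated Hoxb3 locus, at chr11:96311449-96312129 in RXRKO with 125 fragments (percentile 99.3) and at chr11:96311154-96312129 in WT with 112 fragments (percentile 96.4). In HoxC it had 18 fragments in RXRKO and 20 in WT (percentiles 10.7 and 13.3), and in HoxD 20 in RXRKO and 24 in WT (percentiles 17.5 and 25.9).

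Of the HoxB genes, Hoxb3 held the most cover of both promoter marks, with 7483 bp of H3K4me3 in RXRKO and 5547 bp in WT and 2758 bp of H3K27ac in RXRKO and 4179 bp in WT. Its body of 40.8 kb contains Hoxb4, and its H3K4me1 was 5142 and 8606 bp in RXRKO against 5884 and 6295 bp in WT. Hoxb4 had 2253 bp of H3K4me3 in RXRKO and 2411 bp in WT, 492 bp of H3K27ac in RXRKO and 516 bp in WT, and 299 and 1975 bp of H3K4me1 in RXRKO against 497 and 1446 bp in WT. The H3K4me1 ranges of both genes overlapped between genotypes. Hoxb5 had 1840 bp of H3K4me3 in RXRKO and 2098 bp in WT, and its H3K27ac was 0 bp in RXRKO and 884 bp in WT, outside the 1 kb around its start. Its H3K4me1 was 531 and 1549 bp in RXRKO against 639 and 477 bp in WT. Hoxb2, an anterior gene of the hindbrain, had 2751 bp of H3K4me3 in RXRKO and 2564 bp in WT, 507 bp of H3K27ac in RXRKO and 1296 bp in WT, and 1967 and 2027 bp of H3K4me1 in RXRKO against 2019 and 2102 bp in WT. Hoxb6 had 5066 bp of H3K4me3 in RXRKO and 4040 bp in WT, 396 bp of H3K27ac in RXRKO and 532 bp in WT, and 1606 and 3473 bp of H3K4me1 in RXRKO against 2114 and 3115 bp in WT.

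Hoxb7 and Hoxb8 had the lowest fitted H3K4me1 differences of the Hox genes. Hoxb8, which blocks myeloid differentiation when overexpressed, had 2522 and 2623 bp in RXRKO against 3141 and 3862 bp in WT. Hoxb7 had 1565 and 1386 bp in RXRKO against 2138 and 2119 bp in WT. For both genes the 2 RXRKO libraries lay below the 2 WT libraries. In the limma fit over all genes the difference, RXRKO minus WT on the log2(bp + 500) scale, was -0.44 (SE 0.128, unadjusted p = 0.00831, adjusted p = 0.738) for Hoxb8 and -0.48 (SE 0.159, unadjusted p = 0.0158, adjusted p = 0.831) for Hoxb7, so neither passed the adjusted threshold of 0.05. Over the gene body alone the differences were -0.18 (unadjusted p = 0.289 by limma) for Hoxb8 and -0.09 (unadjusted p = 0.594) for Hoxb7, and over the gene and 20 kb around it -0.21 and -0.19. Without RXRKO replicate 2, that of Hoxb7 was -0.30. The windows of these genes overlap and share the region chr11:96284332-96285606, which had 665 and 189 bp of peak in RXRKO against 1118 and 1021 bp in WT. At the same genes H3K4me3 cover was 5377 bp in RXRKO and 3642 bp in WT for Hoxb8, and 3091 bp in RXRKO and 2580 bp in WT for Hoxb7. H3K27ac was 860 bp in RXRKO and 1073 bp in WT for Hoxb8, and 478 bp in RXRKO and 772 bp in WT for Hoxb7. At the Hoxb7 start the H3K4me1 peaks had local backgrounds of 32.9 and 62.6 fragments in RXRKO against 28.3 and 39.1 in WT, whose part in the difference was not tested.

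In the whole H3K4me1 fit, limma called 0 of 16808 genes higher and 0 lower in RXRKO (0% each) at an adjusted p under 0.05, and 894 at an unadjusted p under 0.05. A fit blocked on replicate number called 22 higher and 15 lower, none of them a Hox gene. Of the 37 Hox genes that passed the filter of a mean of 500 bp, which left out Hoxa5, limma called 0, with a smallest adjusted p of 0.738. At an unadjusted p under 0.05 there were 2 lower Hox genes, Hoxb8 and Hoxb7, and 0 higher, where 2.33% of all genes were lower and 2.99% higher. In uncentred base pairs both RXRKO libraries lay above both WT libraries at Hoxa6 and Hoxa13 and below them at Hoxb8 and Hoxb7, where 18.3% of all genes lay above and 6.32% below. The centred difference at Hoxa13 was -0.01 (SE 0.13). The median difference of the 37 was -0.049 and that of all genes -0.011, with 13 Hox genes above 0 and 24 below, and 46.4% of all genes above 0.

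The largest fitted H3K4me1 differences of each cluster, apart from Hoxb8 and Hoxb7, were as follows. In HoxA they were 0.30 (SE 0.136) at Hoxa6 and 0.21 (SE 0.217) at Hoxa7 above 0, and -0.27 (SE 0.166) at Hoxa2 and -0.19 at Hoxa4 and Hoxa9 (SE 0.182 and 0.254) below 0. In HoxB they were 0.40 (SE 0.275) at Hoxb5 and 0.21 (SE 0.162) at Hoxb1 above 0, and -0.28 (SE 0.143) at Hoxb9 below 0. In HoxC they were 0.05 (SE 0.157) at Hoxc6 and 0.01 (SE 0.134) at Hoxc4 above 0, and -0.21 at Hoxc10 and Hoxc11 (SE 0.238 and 0.143) below 0. In HoxD they were 0.39 (SE 0.221) at Hoxd12 and 0.33 (SE 0.305) at Hoxd8 above 0, and -0.13 (SE 0.124) at Hoxd1 and -0.10 (SE 0.145) at Hoxd4 below 0. None of these genes reached an unadjusted p of 0.05 by limma. Because Hox genes lie close together, 27 of the 38 windows overlap that of another Hox gene and share peaks with it.

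**Figure D5:**
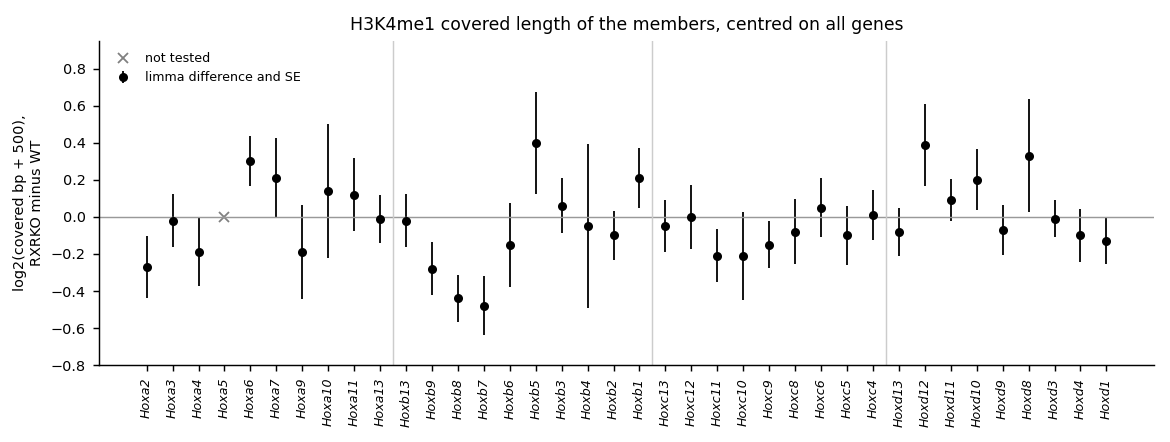
Fitted H3K4me1 difference of each Hox gene, RXRKO minus WT, as log2(covered bp + 500) centred on all genes (y axis), with bars of 1 SE from limma (n = 2 libraries each) and genes in genomic order within HoxA, HoxB, HoxC and HoxD. Hoxb7 at -0.48 and Hoxb8 at -0.44 lie lowest, and the cross marks Hoxa5, which was not tested.

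Over whole clusters the H3K4me1 differences were smaller than the replicate SD. As log2 of the cluster's share of all covered bases, RXRKO minus WT, the difference was 0.04 in HoxA, -0.01 in HoxB, -0.07 in HoxC and 0.04 in HoxD, with replicate SDs of 0.15, 0.051, 0.089 and 0.086. The exact permutation test (two-sided, n = 2 each) gave p = 0.667, 1.0, 1.0 and 0.667, but cannot go below 0.333 in this design and so could not have called a difference. Within the replicate 1 pair, which shares a sequencing run tag, the differences were 0.02, -0.02, -0.14 and 0.05, and within the replicate 2 pair 0.06, 0.0, 0.0 and 0.03.

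For the single libraries the same share gave H3K4me3 differences of -0.17 in HoxA, 0.14 in HoxB, -0.11 in HoxC and 0.09 in HoxD, inside the 5th to 95th percentile range of the 200 kb tiles, which was -0.26 to 0.34. For H3K27ac the differences were -0.48 in HoxA and -0.21 in HoxB, where the tiles ran from -0.43 to 0.37 with a median of -0.02. The HoxA value lay just below that range, and that of HoxB turned to 0.6 among peaks with a fold of 4 or more. The median fold of HoxB peaks was 2.86 in RXRKO and 2.95 in WT, so most were left out there. Those kept included the flank regions chr11:96399847-96400820 (fold 6.69) and chr11:96410575-96411659 (fold 5.05), so the 0.6 describes another set of peaks. In HoxC and HoxD, with 1 and 2 peaks per genotype, the differences were 1.61 and -0.88. Among the 12 Hox genes that passed the 500 bp filter for H3K27ac, 2 had at least 1.5 times less cover in RXRKO on the centred log2(bp + 500) scale, which were Hoxa11 (446 bp in RXRKO, 1223 bp in WT) and Hoxb2, and 0 had at least 1.5 times more. The lower count was 0 at a fold of 4 or more or with a pseudocount of 1000 bp, and 4 with 100 bp. Among all 14356 genes 4.74% were lower and 2.77% higher by this measure. The median of the 12 was -0.29, with 11 below 0, where 50% of all genes were below 0 because of the centring. Several of these windows overlap and share peaks, so the genes are not separate observations. Of the Hox genes the filter left out, Hoxc9 and Hoxa4 had more cover in RXRKO. Hoxa5, Hoxa6, Hoxa13, Hoxb5, Hoxb6, Hoxb9 and Hoxc6, also left out, had less. For H3K4me3, 1 of 37 Hox genes was at least 1.5 times higher, which was Hoxd10 (907 bp in RXRKO, 236 bp in WT), and 0 lower, where 3.35% of all genes were higher and 0.197% lower, and the median of the 37 was 0.03. Hoxd10 was not past this size with equal numbers of top peaks or a pseudocount of 1000 bp.

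The HoxC and HoxD genes described here carried H3K4me1 and H3K4me3 in both genotypes. Hoxc6 had 1909 bp of H3K4me3 in RXRKO and 2414 bp in WT, the most of HoxC in WT, 0 bp of H3K27ac in RXRKO and 306 bp in WT, and 2167 and 3751 bp of H3K4me1 in RXRKO against 2534 and 2691 bp in WT. Hoxc9 had the most H3K4me3 of HoxC in RXRKO, with 2124 bp, against 1982 bp in WT. Hoxc4 had 1783 bp of H3K4me3 in RXRKO and 1864 bp in WT, no H3K27ac in either library, and 2388 and 3048 bp of H3K4me1 in RXRKO against 2745 and 2333 bp in WT. Hoxd3, whose body of 36.3 kb overlaps Hoxd4, had the most H3K4me3 of HoxD, with 6243 bp in RXRKO and 4322 bp in WT, and the only H3K27ac among the HoxD gene windows, with 651 bp in RXRKO and 767 bp in WT. Hoxd4 had 1511 bp of H3K4me3 in RXRKO and 978 bp in WT and 1715 and 2700 bp of H3K4me1 in RXRKO against 2047 and 2433 bp in WT. Hoxd1 had 1695 bp of H3K4me3 in RXRKO and 1528 bp in WT and 2245 and 2417 bp of H3K4me1 in RXRKO against 2326 and 2592 bp in WT. Neither Hoxd4 nor Hoxd1 had H3K27ac in any library, and their H3K4me1 ranges overlapped between genotypes.

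Merged peak regions of the 4 windows were also sorted by the libraries that called them. Of 125 H3K4me3 regions, 99 were called in both genotypes, 21 (16.8%) in the RXRKO list alone and 5 (4.0%) in the WT list alone, against 22.2% and 4.21% of the genome's regions. HoxB held 12 of the 21. The regions with the highest -log10 q in RXRKO only were all in HoxB, at chr11:96341601-96342382 within the Hoxb3 locus, chr11:96283051-96283548 within Hoxb8 and chr11:96254087-96254794 between Hoxb13 and Hoxb9. Those in WT only were at chr6:52115407-52116295 in the flank of HoxA, chr6:52220093-52220378 upstream of Hoxa7 and chr15:102970968-102971178 within Hoxc10.

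Of 47 H3K27ac regions, 26 were called in both genotypes, 6 (12.8%) in the RXRKO list alone and 15 (31.9%) in the WT list alone, where the genome's shares were 13.0% and 23.9%. HoxA held 0 of the RXRKO-only and 6 of the WT-only regions, and HoxB 4 and 7. In RXRKO only, the highest -log10 q were at chr11:96265804-96266250 between Hoxb13 and Hoxb9, chr11:96354442-96354708 beside Hoxb2, and, tied at 4.85, chr15:102976621-102977503 at Hoxc9 and chr2:74740380-74740623 within the Hoxd3 locus. In WT only they were at chr11:96340784-96341254 within the Hoxb3 locus, chr6:52218373-52218740 over the Hoxa7 start and chr11:96352801-96353588 within Hoxb2. At the annotated end taken as the Hoxb2 start both genotypes thus had a peak, but on opposite sides, 422 bp away in RXRKO and 432 bp in WT. This end was taken because it had more H3K4me3, and it is opposite to the strand of its neighbours, so it may not be the start. Near the other annotated end, the region chr11:96351956-96352240 was called in both genotypes, with 240 bp in RXRKO and 239 bp in WT.

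Of 207 H3K4me1 regions, 132 were called in all 4 libraries, 6 in both RXRKO libraries only (2.9%) and 3 in both WT libraries only (1.45%), against 2.17% and 1.94% of the genome's regions. The first kind had its highest -log10 q at chr11:96301734-96302198 beside Hoxb5, chr6:52294727-52295101 in the flank of HoxA and chr6:52241136-52241545 upstream of Hoxa10. The second were at chr15:103002723-103003178 within Hoxc6, chr6:52130825-52131350 in the flank of HoxA and chr6:52176354-52176583 within the Hoxa3 locus. The highest H3K4me1 summit of the HoxB window lay in the flank in all 4 libraries, 33.9 and 34.0 kb from the Hoxb1 start in both genotypes, with 162 and 266 fragments in RXRKO and 165 and 229 in WT.

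The clusters also hold microRNA genes, which repress transcripts matched by the seed at bases 2 to 8. The mature sequences, from RefSeq, are shown because members of different clusters share a seed, here in capitals.
miR-196a-5p (Mir196a-1 in HoxB and Mir196a-2 in HoxC): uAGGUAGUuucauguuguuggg
miR-196b-5p (Mir196b in HoxA): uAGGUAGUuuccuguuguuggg
miR-10a-5p (Mir10a in HoxB): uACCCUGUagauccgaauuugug
miR-10b-5p (Mir10b in HoxD): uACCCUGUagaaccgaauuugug
The miR-196 forms share the seed AGGUAGU, and Hoxb8 is a known target of miR-196a. The miR-10 forms share ACCCUGU.

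Hairpins with the same seed carried different marks. The hairpin of Mir196b, at chr6:52230081-52230165 between Hoxa9 and Hoxa10, had 1401 bp of H3K4me3 within 1 kb in RXRKO and 1159 bp in WT, 430 bp of H3K27ac in RXRKO and 724 bp in WT, and 0 and 249 bp of H3K4me1 in RXRKO against 204 and 458 bp in WT. Mir196a-1, at chr11:96265164-96265265, had no H3K4me3 in either genotype, 447 bp of H3K27ac in RXRKO and 0 bp in WT, and 427 and 465 bp of H3K4me1 in RXRKO against 406 and 423 bp in WT. Mir196a-2, at chr15:102973350-102973434, had 0 bp of each mark in all 8 libraries. Mir10a, at chr11:96317165-96317274 beside Hoxb4, had 439 bp of H3K4me3 in RXRKO and 371 bp in WT and no H3K27ac. Mir10b, at chr2:74726070-74726137 beside Hoxd4, had 261 bp of H3K4me3 in RXRKO and 52 bp in WT and no H3K27ac or H3K4me1.

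A list of 42 genes whose products work with or on Hox genes was set beside the clusters. It holds cofactors of the TALE family, trithorax and Polycomb subunits, retinoic acid receptors and the Evx genes beside the clusters. In the limma fit of H3K4me1, 0 of 42 were called after adjustment, where 1 passed 0.05 before it. The median of the 42 was -0.05, with 15 above 0 and 25 below. H3K4me3 at the start was called at 40 of 42 in RXRKO and 39 of 42 in WT, where 67.7% and 67.1% of all genes were called, with Evx1 in RXRKO only (342 bp in RXRKO, 0 bp in WT). H3K27ac was called at 26 of 42 in RXRKO and 32 of 42 in WT, where 57.9% and 61.0% of all genes were called and 4.27% in WT alone. Among those called in WT only were Cbx2 and Cbx7, subunits of Polycomb complex 1, Kmt2a, the TALE gene Pknox2, and Rarb. Rarb, a retinoic acid receptor and a target gene of retinoic acid, had 0 bp at its start in RXRKO and 1040 bp in WT. Over the gene and 2 kb around it, Rarb had 16527 bp of H3K27ac in RXRKO and 17074 bp in WT. These start calls were not checked with stricter lists. Of the neighbours inside the windows, Ttll6 beside HoxB and Evx2 beside HoxD had H3K4me3 at the start in both genotypes (922 bp in RXRKO and 761 bp in WT, and 574 bp in RXRKO and 423 bp in WT) and no H3K27ac.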

How the data were processed

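Histone marks were measured in 8 CUT&RUN libraries of sorted HSCs. Cutadapt 1.7.1, Bowtie2 2.2.5, MACS3 and the build mm10 are named, per the submitters' processing notes. The MACS3 version, peak thresholds, duplicate handling and any control or spike-in are not stated there. The deposited lists, 1 per library, hold for each peak the authors' score, fold (a ratio of peak height to local background), -log10 p-value and -log10 q-value. An H3K27me3 antibody is named in the protocol, and that mark was not analysed here. The 38 genes and the lists were chosen with earlier results of these data known.

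Covered base pairs of called peaks were summed per cluster window (listed genes plus 50 kb), gene body plus 2 kb and gene start plus and minus 1 kb. Starts came from the RefSeq promoter table for 22 Hox genes, and for 16 from the annotated end with more H3K4me3, so that for these the H3K4me3 call at the start is not independent of the choice. H3K4me1 was fitted with limma 3.58.1 (R 4.3.3; log2(bp + 500), centred on library medians, mean of at least 500 bp, 16808 genes, Benjamini-Hochberg). Heights and local backgrounds were solved from the authors' fold and -log10 p, with all peaks within 0.01 of the deposited value. Both procedures were tested on simulated data. Same-numbered H3K4me1 libraries share a run tag in the deposited file names, and the replicate difference of RXRKO correlated with that of WT (r = 0.255 over 16808 genes), so a fit with the replicate number as a block was also run. Named genes were the blood-related Hox genes, the 2 largest H3K4me1 differences each way per cluster, all starts called in 1 genotype only, the gene with most H3K4me3 and most H3K27ac per cluster, and up to 3 regions per mark and direction. Alternatives were stricter peak lists (-log10 q of at least 5, fold of at least 4, equal numbers of top peaks), other windows, overlaps, pseudocounts, filters and scalings, and leaving out each H3K4me1 library. Values of 1 gene of the cofactor list are not reported here.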

Additional observations from a re-analysis of the deposited data

How the results depend on the processing

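Of 37 Hox genes fitted for H3K4me1, 0 were called under any alternative (lowest adjusted p 0.228), and 28 changed sign under at least 1. All-gene H3K4me1 calls were 22 higher and 15 lower with the replicate block, and 0 to 41 higher and 0 to 13 lower when 1 library was left out: 41 and 13 when WT replicate 1 was dropped, 13 and 2 when WT replicate 2 was, and 0 when either RXRKO library was. The remaining single library is taken to have the spread of the other genotype. The block called no Hox gene.

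With a fold of at least 4, the H3K4me1 share difference became 0.05 in HoxC and -0.06 in HoxD. That of H3K27ac in HoxB became 0.6, so it changed direction, on a list without most HoxB peaks. Without division by library totals the H3K4me1 value of HoxB was 0.06. Leaving out 1 library gave H3K4me1 share differences of -0.08 to 0.16 in HoxA, -0.05 to 0.03 in HoxB, -0.16 to 0.02 in HoxC and -0.03 to 0.11 in HoxD. Where no H3K27ac peak was left in HoxC or HoxD, no value could be had.

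H3K4me3 starts called in both genotypes fell to 15 at fold 4, those in RXRKO only to 0 with equal numbers of peaks (Hoxd10 and Hoxd4 were then called in neither), and those in WT only were 0 at -log10 q of 5, 3 at fold 4, 2 with equal numbers and 0 within 2 kb. H3K27ac starts in both were 3 at -log10 q of 5 and 1 at fold 4, in RXRKO only 0 at fold 4 and 2 with 500 bp either side or 200 bp of overlap, and in WT only 7 at -log10 q of 5, 0 at fold 4 and 6 within 2 kb. Taking the other annotated end as the start of Hoxb2, chosen after seeing the data, changed none of these counts.

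H3K4me1 regions called in all libraries were 34 at fold 4, in RXRKO only 1 at fold 4, and in WT only 0 at -log10 q of 5. H3K4me3 regions in both were 46 at fold 4, in RXRKO only 9 at fold 4 and 12 with equal numbers, and in WT only 11 with equal numbers. H3K27ac regions in both were 4 at fold 4, in RXRKO only 3 at -log10 q of 5 and at fold 4, and in WT only 3 at fold 4. Of the alternatives added after seeing the data, Hox genes past 1.5-fold in H3K4me3 were 4 higher and 4 lower at fold 4, and 0 higher with equal numbers, 2 without centring, 2 with a pseudocount of 100 bp and 0 with 1000 bp. In H3K27ac the lower ones were 0 at fold 4, 4 with 100 bp and 0 with 1000 bp. The causes were not tested. Of 225 recomputed summary values, 181 stayed within their limit. The limit was the replicate SD for H3K4me1 shares, a change of 1.5-fold for shares of the other marks, and 1.5 times for counts. The replicate block cannot change the H3K4me1 cluster share differences, so those values could not move. Unstated depth, a usual background that differed between libraries, and single H3K4me3 and H3K27ac libraries limit every difference.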
